A study of Capra hircus with 3 samples.

Results

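The 8 genes described here are B4GALT1, SLC2A1, SLC2A8, SLC35A2, HK1, HK2, PGM1 and UGP2, which carry glucose into the mammary cell and turn it into lactose. They were chosen by symbol, and all 8 were found by their goat NCBI gene ID among the 13023 protein-coding genes with deposited values, each at 1 locus. Mammary gland tissue was taken by surgery from Laoshan dairy goats, a Chinese dairy breed, at 10, 90 and 210 days after parturition, and RNA of 5 goats was mixed per stage. The methods describe 5 goats in all and 15 specimens, so the 3 pools appear to share their goats, and the later specimens then follow earlier surgery on the gland. Each stage gave 1 library, called the E library (labelled early lactation), P library (labelled peak lactation) and L library (labelled late lactation). All goats were 4 years old and in the third lactation, with free access to food and water, and none received a treatment other than anaesthesia. With 1 pooled library per stage, the spread between goats or libraries cannot be estimated, so every difference below has no replicate check and no p-value, and neighbours in an order of levels cannot be told apart beyond such a spread. The values are FPKM, fragments per length of transcript and per mapped reads of the library, as the authors deposited them. Read numbers are not part of the table, which leaves the depth under a value unknown, and no interval is given. The P library, labelled peak lactation, held the lowest levels of all 8 measured milk secretion genes and the highest of 10 of 11 leukocyte markers, and alpha-lactalbumin is listed at 0 in the L library. Whether the peak and late labels are right was not tested. The libraries are named by their labels throughout, and the values with both labels exchanged are given with the alternatives.

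Lactose, the main sugar of milk and the solute that draws most water into it, is made in the Golgi of the secretory epithelial cell. Glucose enters through facilitative carriers and is phosphorylated by hexokinases. Phosphoglucomutase and UDP-glucose pyrophosphorylase turn part of it into UDP-glucose, from which UDP-galactose is made. A Golgi carrier brings the UDP-galactose to lactose synthase, in which the galactosyltransferase B4GALT1 is joined by the whey protein alpha-lactalbumin, and free glucose is the acceptor.

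The 8 genes covered a wide range of levels. In the E library, B4GALT1 was the most abundant at 381 FPKM, followed by UGP2 at 205 FPKM, and HK2 was the lowest at 1.18 FPKM. B4GALT1 and UGP2 together held 86.8% of the summed FPKM of the 8 genes in the E library, 76.2% in the P library and 87.7% in the L library. The order of the 8 genes by FPKM was the same in the E and L libraries. In the P library SLC35A2 and HK1 changed places, with HK1 in the fourth position and SLC35A2 in the sixth. In bulk tissue, fewer cells of a type and less RNA per cell cannot be told apart.

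**Figure D1:**
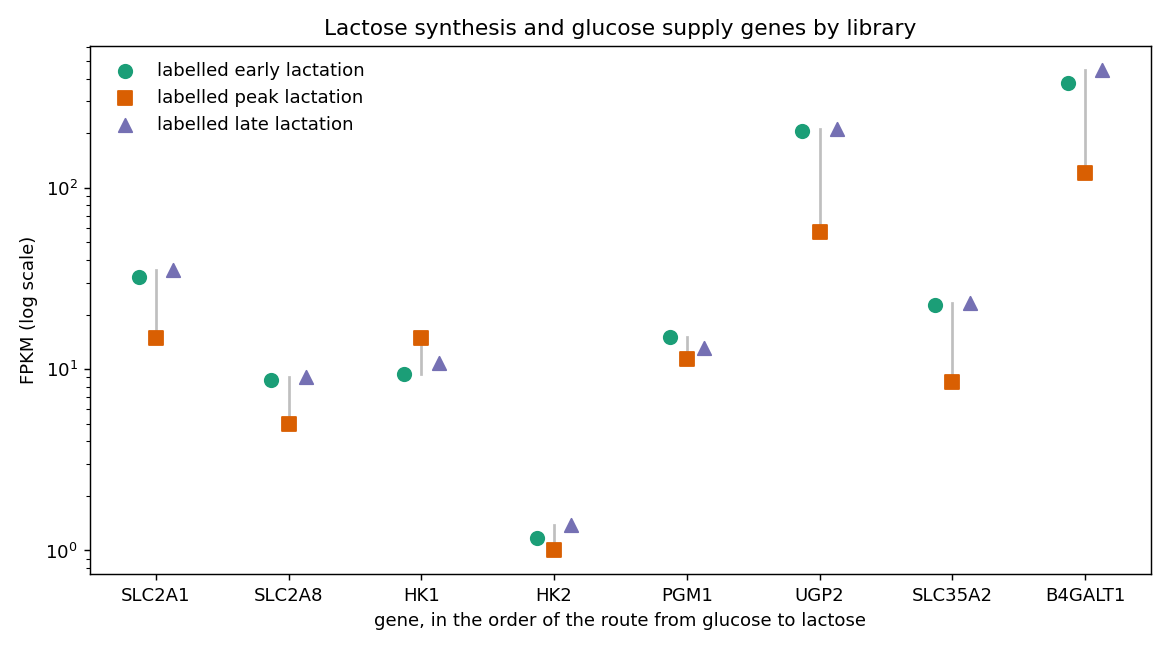
FPKM on a log axis of each of the 8 genes, in the order of the route from glucose to lactose, with 1 point per pooled library. The P library is the lowest point for every gene except HK1, and the points of the E and L libraries lie close together for all 8.

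The P library was compared with the E library to ask how these genes differed between the stages labelled peak and early lactation. Of the 8 genes, 4 were at least 2-fold lower in the P library, namely UGP2, B4GALT1, SLC35A2 and SLC2A1, and none was at least 2-fold higher. Among 13020 protein-coding genes above 0 in either library, 6.80% were at least 2-fold lower and 10.9% at least 2-fold higher, 17.7% in all. The median log2 ratio of P over E was -0.96 over the 8 genes and 0.01 over all protein-coding genes. The 4 genes that were lower were also the 4 most abundant of the 8 in the L library, which did not enter this ratio. The direction was negative for 7 of the 8 genes as deposited, but the sign of HK2 turned to 0.04 when the libraries were scaled to their summed FPKM without the 10 most abundant loci.

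B4GALT1 (gene ID 100860927), the catalytic part of lactose synthase, is listed on scaffold NW_005100741.1 from 9278250 to 9327082 and overlaps no other listed locus. It had 381 FPKM in the E library, 121 FPKM in the P library and 447 FPKM in the L library. The P library was thus the low one, with 3.15 times less B4GALT1 than the E library, a log2 ratio of -1.65. Only 1.498% of the 11479 protein-coding genes that reached 1 FPKM in the E and the P library had a lower ratio. Even so, B4GALT1 was the 178th most abundant protein-coding gene of the P library, against the 82nd in the E library and the 67th in the L library. Its partner alpha-lactalbumin (LALBA) had 70053 FPKM in the E library and 15214 FPKM in the P library, which is 184 and 126 times the FPKM of B4GALT1. LALBA is listed at 0 in the L library, and since the file can list a failed estimate as 0, no ratio was taken from it.

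The relatives B4GALT2 to B4GALT7, which add galactose to glycoproteins, glycolipids and proteoglycans, were far less abundant than B4GALT1. Their summed level was 32.3 FPKM in the E library, 42.9 FPKM in the P library and 31.3 FPKM in the L library. B4GALT1 accordingly held 92.2% of the family's summed FPKM in the E library, 73.9% in the P library and 93.5% in the L library. None of the 6 relatives was at least 2-fold lower in the P library than in the E library, and their median log2 ratio was 0.75. B4GALT4 was higher in the P library, with 3.54, 7.93 and 2.83 FPKM in the E, P and L libraries, and so was B4GALT6, with 1.23, 2.94 and 1.13 FPKM. B4GALT2, the most abundant relative, had 11.1, 9.35 and 10.2 FPKM in the same order. The relatives' median stayed positive under every scaling tried, and the distance between B4GALT1 and its relatives does not depend on scaling.

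**Figure D2:**
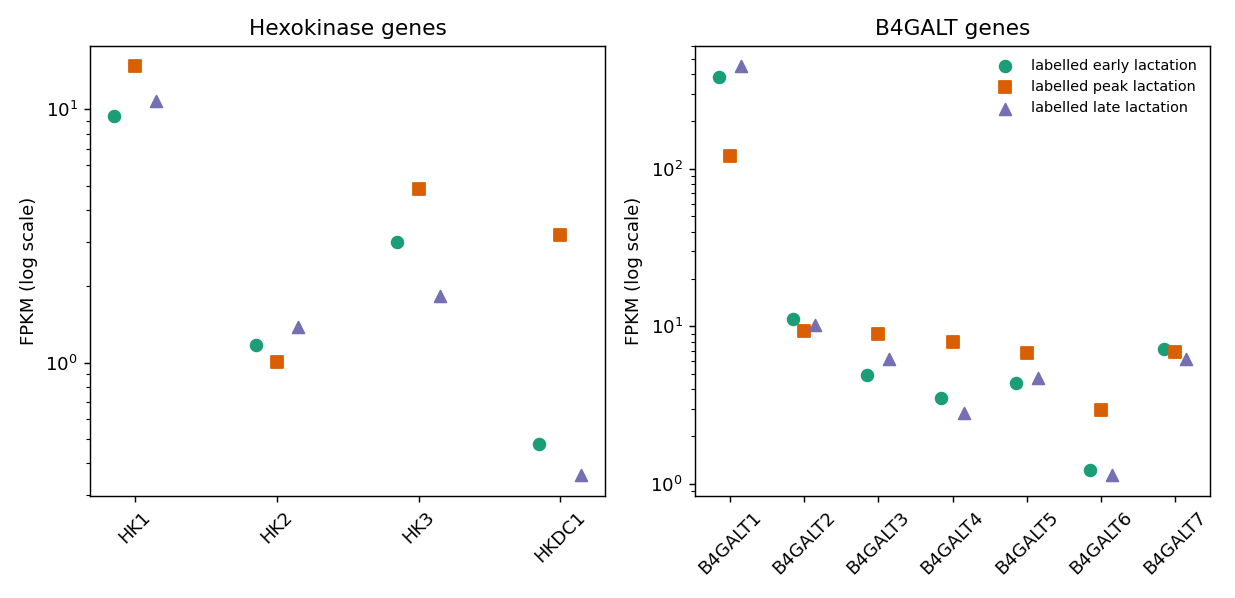
FPKM on log axes of HK1, HK2, HK3 and HKDC1 (left) and the B4GALT genes (right), with 1 point per pooled library. B4GALT1 is the most abundant B4GALT gene in all 3 libraries and is lowest in the P library, while HK1, HK3 and HKDC1 are highest there.

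UGP2 (gene ID 102177249), which makes UDP-glucose, is listed on scaffold NW_005100781.1 from 882900 to 940238. It had 205 FPKM in the E library, 57.2 FPKM in the P library and 212 FPKM in the L library. This was the lowest ratio of the 8 genes, 3.58 times less in the P than in the E library, and only 0.967% of the 11479 genes had a lower one. PGM1 (gene ID 102183563), which interconverts the glucose phosphates one step earlier, lies on scaffold NW_005100642.1, positions 12554575 to 12620831. It had 15.1, 11.4 and 13.02 FPKM in the E, P and L libraries. Its log2 ratio of P over E was -0.40, short of 2-fold. The consecutive enzymes therefore stood in different proportions, with 13.6 times as much UGP2 as PGM1 in the E library, 5.01 times in the P library and 16.3 times in the L library. PGM2, a relative of PGM1, had 7.03, 5.84 and 7.10 FPKM.

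Of the 12 measured phosphoglucomutase and UDP-sugar genes outside the 8, 3 were at least 2-fold lower in the P than in the E library, among them GALM and UXS1, and 2 at least 2-fold higher (GALK1 and UGDH). UXS1, which makes UDP-xylose, had 67.3, 25.2 and 79.4 FPKM in the E, P and L libraries, and GALM, the aldose mutarotase, had 32.4, 13.4 and 28.2 FPKM. GALK1, the galactose kinase, had 3.58, 8.51 and 4.86 FPKM, and UGDH, which oxidizes UDP-glucose, had 5.54, 11.5 and 5.76 FPKM. UGDH draws on the product of UGP2, and these neighbouring enzymes had opposite signs between the P and E libraries. The abundant UAP1 and UGGT1 stayed within 2-fold, at 49.4, 27.4 and 53.5 FPKM and at 35.8, 32.7 and 45.8 FPKM, and the median log2 ratio of the list was -0.20. PGM5, a phosphoglucomutase relative of muscle and adherens junctions, had 10.8, 11.2 and 13.4 FPKM.

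SLC35A2 (gene ID 102173275), the carrier of UDP-galactose into the Golgi, is listed on scaffold NW_005101005.1 from 2666696 to 2674452. It had 22.6 FPKM in the E library, 8.49 FPKM in the P library and 23.0 FPKM in the L library. The E and L libraries were nearly equal and the P library was 2.66 times lower than the E library. Its proportion to B4GALT1, the enzyme it supplies, moved less than the level of either, with 16.9 times as much B4GALT1 in the E library, 14.3 times in the P library and 19.4 times in the L library. Among 19 other nucleotide-sugar carriers, Golgi ion pumps and nucleotide diphosphatases, 3 were at least 2-fold lower in the P than in the E library and 0 at least 2-fold higher, with a median log2 ratio of -0.58. ATP2C2, a Golgi calcium and manganese pump, had 187, 46.6 and 213 FPKM in the E, P and L libraries. SLC35C1, the GDP-fucose carrier, had 17.0, 4.95 and 17.7 FPKM, and SLC35D2 had 28.1, 8.50 and 37.1 FPKM. ATP2C1, the more widely used relative of ATP2C2, stayed at 29.2, 26.8 and 33.8 FPKM, so within this pair only ATP2C2 was called. SLC35F5 and SLC35B2 were abundant and not called between these libraries, at 34.4, 20.7 and 33.4 FPKM and at 24.9, 15.1 and 29.4 FPKM.

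SLC2A1 (gene ID 102174800), the main facilitative glucose carrier of lactating mammary epithelium, is listed on scaffold NW_005100643.1 from 3822932 to 3839405. It had 32.2 FPKM in the E library, 14.9 FPKM in the P library and 35.4 FPKM in the L library. The P library was 2.16 times lower than the E library, just past 2-fold, and the log2 ratio of -1.11 fell short of it at -0.97 when the libraries were scaled to their summed FPKM and at -0.84 when the 10 most abundant loci were left out of that sum. SLC2A8 (gene ID 102189766), a carrier kept mostly on intracellular membranes, lies on scaffold NW_005100783.1, positions 4273108 to 4282152. It had 8.67, 4.95 and 9.03 FPKM. It was lowest in the P library too, with a log2 ratio of P over E of -0.81 that was not called as deposited and passed 2-fold at -1.01 when scaled to luminal epithelium markers. SLC2A1 exceeded SLC2A8 3.72 times in the E library, 3.01 times in the P library and 3.92 times in the L library.

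Among the 13 other sugar carriers measured, 5 were at least 2-fold lower in the P than in the E library and 3 at least 2-fold higher. Of the 5, those at 1 FPKM or more in the E and the P library were SLC50A1 of the SWEET family with 73.8, 34.5 and 104 FPKM, SLC5A1, the sodium-glucose cotransporter, with 32.0, 12.5 and 41.1 FPKM, SLC5A9 with 16.0, 5.13 and 24.9 FPKM, and SLC2A9, a urate carrier, with 10.1, 2.37 and 10.3 FPKM. SLC2A1 held 16.8% of the summed FPKM of all measured sugar carriers in the E library, 14.9% in the P library and 14.7% in the L library, second to SLC50A1 in the E and P libraries and behind SLC5A1 as well in the L library. SLC2A3, a glucose carrier of neurons and leukocytes, had the other sign, with 9.75 FPKM in the E library, 12.3 FPKM in the P library and 7.26 FPKM in the L library, none of these ratios reaching 2-fold. SLC2A13 and SLC45A3 were not called, at 3.15, 3.01 and 2.88 FPKM and at 2.09, 3.15 and 1.87 FPKM. SLC2A4, the insulin-responsive carrier of muscle and fat, was near 1 FPKM throughout, at 1.052, 1.21 and 1.29 FPKM, and was added to the named genes after its values were seen.

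HK1 (gene ID 102190759), the hexokinase of most tissues, lies on scaffold NW_005100961.1, positions 3011249 to 3064463. It had 9.42 FPKM in the E library, 14.8 FPKM in the P library and 10.8 FPKM in the L library. It was the only one of the 8 genes that was highest in the P library, 1.57 times the E library, short of 2-fold but past a fold of 1.5, at which 21.1% of protein-coding genes were higher. Of the 11479 genes, 85.7% had a lower ratio of P over E. HK2 (gene ID 102168356), the insulin-regulated hexokinase of muscle and fat, lies on scaffold NW_005100769.1, positions 9581411 to 9665286. It had 1.18, 1.003 and 1.39 FPKM. The lncRNA LOC102191530 is listed with exactly the same span as HK2 and had 1.02 FPKM in the P library and a listed 0 in both others, so the split of reads between them is uncertain. HK1 exceeded HK2 8.01 times in the E library, 14.7 times in the P library and 7.79 times in the L library. Relative to HK1, the carrier SLC2A1 stood at 3.42 in the E library, 1.011 in the P library and 3.28 in the L library. SLC2A1 and HK1 were thus level in the P library only. Other hexokinase genes were not part of this ratio, which describes this pair and not glucose carriers and hexokinases in general.

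HK3, the hexokinase of myeloid cells, had 3.004, 4.82 and 1.83 FPKM in the E, P and L libraries, and HKDC1 had 0.477, 3.20 and 0.358 FPKM. Both followed HK1 in being highest in the P library. ADPGK, which phosphorylates glucose with ADP, had 32.0, 14.6 and 27.1 FPKM and was at least 2-fold lower in the P library than in the E library. The glucose-phosphate carrier SLC37A4 and the phosphatase G6PC3 of this list were low, at 2.96, 2.86 and 4.33 FPKM and at 3.23, 2.65 and 2.82 FPKM.

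The L library was compared with the E library for the difference between late and early lactation. None of the 8 genes differed by 2-fold in either direction, against 8.71% of 13004 protein-coding genes, 1.97% higher and 6.74% lower. At a fold of at least 1.5, none of the 8 was called either, against 17.8% of the protein-coding genes. All 8 reached 1 FPKM in the E and the L library. Among protein-coding genes that did so, the shares were lower, 2.88% at a fold of 2 and 10.3% at a fold of 1.5. Their log2 ratios of L over E ran from -0.21 for PGM1 to 0.24 for HK2, and 7 of the 8 were positive. B4GALT1 was 1.17 times higher in the L library and UGP2 1.04 times. The median was 0.10 over the 8 genes and -0.03 over all protein-coding genes, and no spread between replicates is at hand to set these small differences against. Of 102 measured pathway genes outside the 8, 3 were called in this comparison, all lower in the L library and all under 1 FPKM there.

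The L library was then compared with the P library, which shares its P values with the comparison of P and E. B4GALT1, UGP2, SLC35A2 and SLC2A1 were at least 2-fold higher in the L library, against 8.56% of 13015 protein-coding genes, and none of the 8 was at least 2-fold lower, against 17.4%. In both directions together, 25.9% of the protein-coding genes were called. The log2 ratio of L over P was 1.89 for UGP2, 1.88 for B4GALT1, 1.44 for SLC35A2 and 1.25 for SLC2A1. It was 0.87 for SLC2A8, 0.47 for HK2, 0.19 for PGM1 and -0.45 for HK1, and the sign of PGM1 turned to -0.06 when scaled without the 10 most abundant loci. At a fold of at least 4, none of the 8 was higher in the L than in the P library or lower in the P than in the E library, against 1.91% and 1.36% of the protein-coding genes. The median was 1.06 over the 8 genes and -0.03 over all protein-coding genes. Taking all 3 libraries, 6 of the 8 genes were highest in the L and lowest in the P library, an order found for 28.6% of 11087 genes with at least 1 FPKM in every library. A level at least 2-fold lower in the P library than in both others was found for 4 of the 8 genes and for 4.80% of the 11087.

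**Figure D3:**
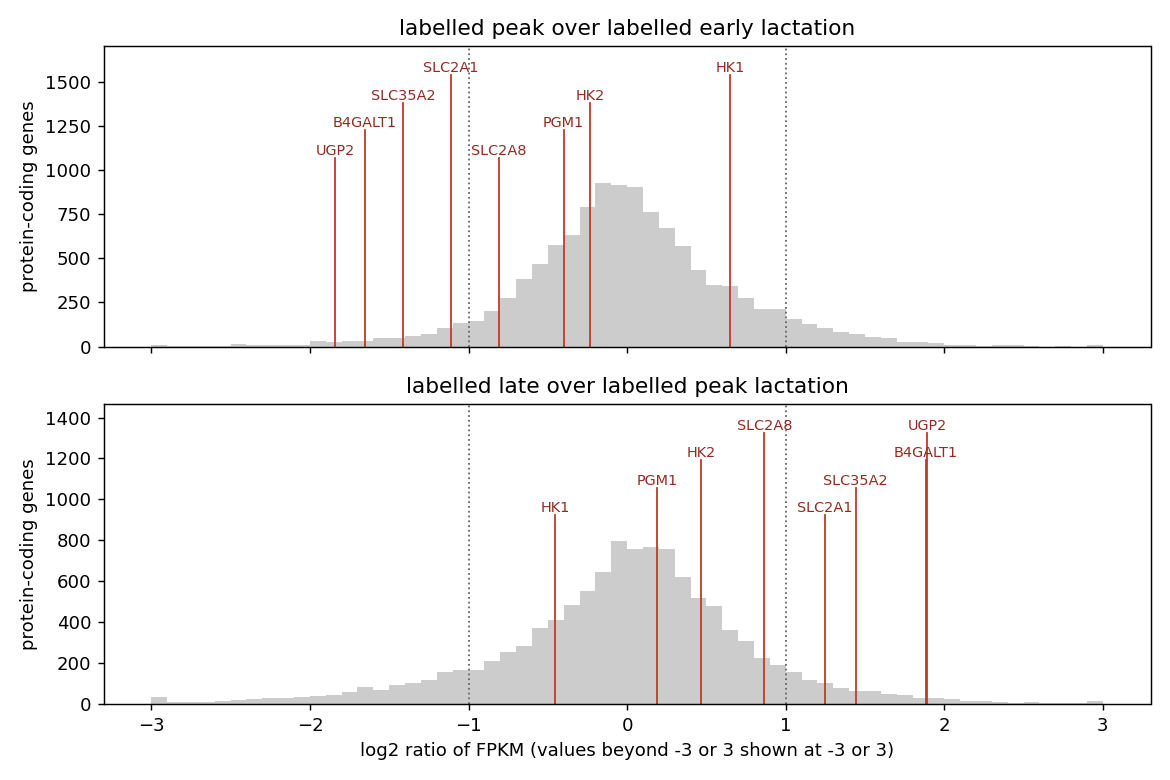
Histograms of the log2 ratio of FPKM for protein-coding genes reaching 1 FPKM in each library compared, for P over E (top) and L over P (bottom), with the 8 genes as red lines and 2-fold as dotted lines. UGP2, B4GALT1, SLC35A2 and SLC2A1 lie beyond the dotted line on the low side at the top and on the high side at the bottom, and HK1 lies on the other side of 0 in both.

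Genes that use glucose in other ways did not all move with the 8. Of 19 measured glycolysis genes, 3 were at least 2-fold higher and 3 at least 2-fold lower in the P than in the E library, with a median log2 ratio of 0.33. LDHA, a lactate dehydrogenase subunit, had 9.86, 22.9 and 11.8 FPKM in the E, P and L libraries, PFKP, a phosphofructokinase, had 6.67, 13.5 and 6.26 FPKM, and PFKFB4, which sets the level of the activator of phosphofructokinase, had 19.2, 9.03 and 24.1 FPKM. Its relative PFKFB3 was highest in the P library at 4.32, 6.91 and 2.79 FPKM. ALDOC, an aldolase, had 8.12, 2.28 and 4.63 FPKM. The abundant LDHB, ALDOA and ENO1 stayed within 2-fold, at 149, 83.2 and 153 FPKM, at 108, 95.8 and 95.1 FPKM and at 70.6, 91.7 and 64.1 FPKM. Glycolysis genes were thus found on both sides of 0.

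In the pentose phosphate pathway, 1 of 6 measured genes was at least 2-fold lower in the P than in the E library. This was TKT, transketolase, with 202 FPKM in the E library, 90.1 FPKM in the P library and 196 FPKM in the L library, while PGD had 42.6, 39.9 and 64.4 FPKM. RPE had 14.3, 12.6 and 13.6 FPKM at a locus it shares with KANSL1L, and PGLS had 12.2, 12.7 and 10.7 FPKM. The list's median log2 ratio was -0.14. None of the 10 measured glycogen genes was called between these libraries, with a median of 0.01. PYGB, a glycogen phosphorylase, was the one called between L and P, with 21.9, 14.0 and 29.4 FPKM, while PYGL had 15.7, 22.4 and 12.3 FPKM, GBE1 15.6, 14.5 and 17.9 FPKM and GYG1 8.52, 8.22 and 9.08 FPKM.

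Of 11 measured regulators of glucose use, 1 was at least 2-fold lower in the P than in the E library, and the median log2 ratio was -0.40. This was IRS1, an insulin receptor substrate, with 21.1, 9.99 and 28.5 FPKM. TXNIP and ARRDC4, glucose-induced arrestins of which TXNIP restrains glucose uptake, were highest in the P library, at 322, 491 and 237 FPKM and at 9.87, 17.6 and 6.22 FPKM. MLXIP, a glucose-sensing transcription factor, had 3.73, 6.30 and 2.92 FPKM, and these 3 genes were called between the P and L libraries. AKT1, INSR and MLX were abundant and not called, at 90.0, 49.8 and 88.1 FPKM, at 36.7, 34.7 and 36.8 FPKM and at 31.0, 21.4 and 31.5 FPKM, with MLX at a locus that overlaps PSMC3IP. Over all pathway lists, 29 of 102 measured genes were called between P and E, 18 lower and 11 higher in the P library, a share of 28.4% beside 17.7% of all protein-coding genes.

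Markers of milk secretion were lower and those of leukocytes higher in the P than in the E library. All 8 measured milk secretion genes (among them CSN1S1, CSN3, BTN1A1 and FASN) were at least 2-fold lower in the P than in the E library, with a median log2 ratio of -1.43, and their summed level was 64195 FPKM in the E library, 21071 FPKM in the P library and 84458 FPKM in the L library. Markers of luminal epithelium split, with KRT7 and ELF3 at least 2-fold higher, ELF5 at least 2-fold lower and 8 of 11 within 2-fold, with a median log2 ratio of P over E of 0.20. Their sums of 1899, 1310 and 1820 FPKM in the E, P and L libraries rest on ELF5, a regulator of secretory cells with 879, 244 and 875 FPKM, and were 1020, 1066 and 944 FPKM without it. All 10 leukocyte markers above 0 in either library were higher in the P library than in the E library, 6 of them at least 2-fold. In the L library, 9 of 11 were lower than in the E library, 5 of them at least 2-fold, and 7 of 11 were at least 2-fold lower than in the P library. The 11 leukocyte markers summed to 342, 595 and 382 FPKM, of which JCHAIN, the joining chain of secreted antibodies, made up 266, 429 and 337 FPKM. Without JCHAIN the sums were 76.1, 166.6 and 45.6 FPKM, lowest in the L library. CD3E was listed at 0 in the E and P libraries. Their part in the results on the 8 genes was not tested. Of the endothelial markers 0 of 6, and of the myoepithelial markers 1 of 8, differed by 2-fold between P and E. Fibroblast markers split, with 3 of 6 called, 2 lower and 1 higher in the P library, and 1 of 5 adipocyte markers was called, lower. The share over all protein-coding genes was 17.7%. Myoepithelial markers summed to 301, 292 and 310 FPKM, fibroblast markers to 664, 549 and 542 FPKM, endothelial markers to 143, 134 and 152 FPKM and adipocyte markers to 21.99, 8.40 and 10.5 FPKM. No red cell marker was matched to a listed gene, and of the skeletal muscle markers only TNNT3 was, with 0.935, 1.003 and 1.37 FPKM. Milk and epithelial genes, which define the labelled tissue, were abundant in each library.

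**Figure D4:**
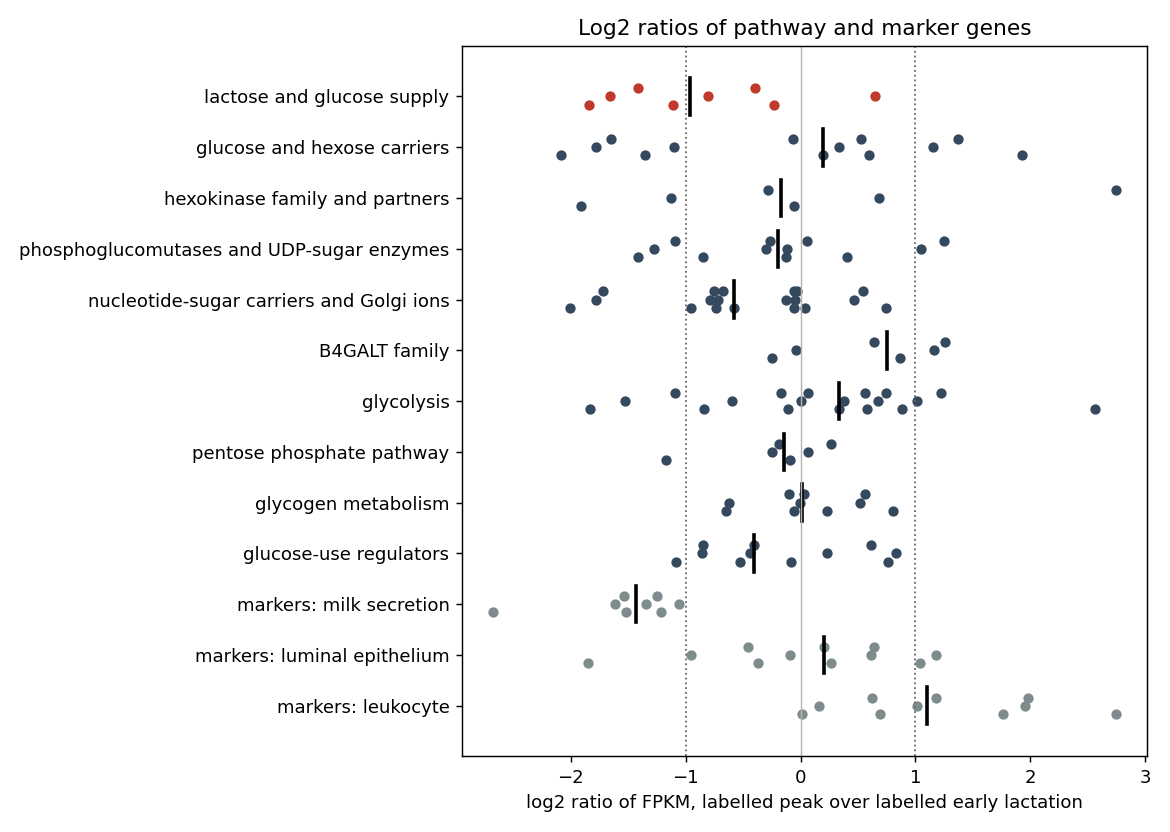
Log2 ratios of P over E for each measured gene of the pathway and marker lists, 1 point per gene above 0 in both libraries, with the median as a black bar and 2-fold as dotted lines. The 8 genes have a median of -0.96 and the milk secretion markers of -1.43, while the B4GALT relatives have a median of 0.75 and the leukocyte markers of 1.097.

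Set against the milk secretion genes, the 8 genes fell on either side. When the libraries were scaled to the median of these markers, an alternative chosen after seeing the data, the log2 ratio of P over E was -0.41 for UGP2, -0.22 for B4GALT1, 0.019 for SLC35A2 and 0.32 for SLC2A1, so none of the 4 genes called as deposited was called. HK1 was then at 2.08, HK2 at 1.20 and PGM1 at 1.03, and these 3 were at least 2-fold higher in the P library. Of the 11479 protein-coding genes at 1 FPKM or more in both libraries, only 23.7% had a lower ratio than PGM1. Most protein-coding genes were therefore at least 2-fold higher under this scaling too, and these calls are not particular to the 3 genes. The genes called as deposited thus stayed within 2-fold of the milk secretion genes, and HK1, HK2 and PGM1 did not. Scaled to luminal epithelium markers, B4GALT1 was at -1.86, UGP2 at -2.04, SLC35A2 at -1.62 and SLC2A1 at -1.31.

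**Figure D5:**
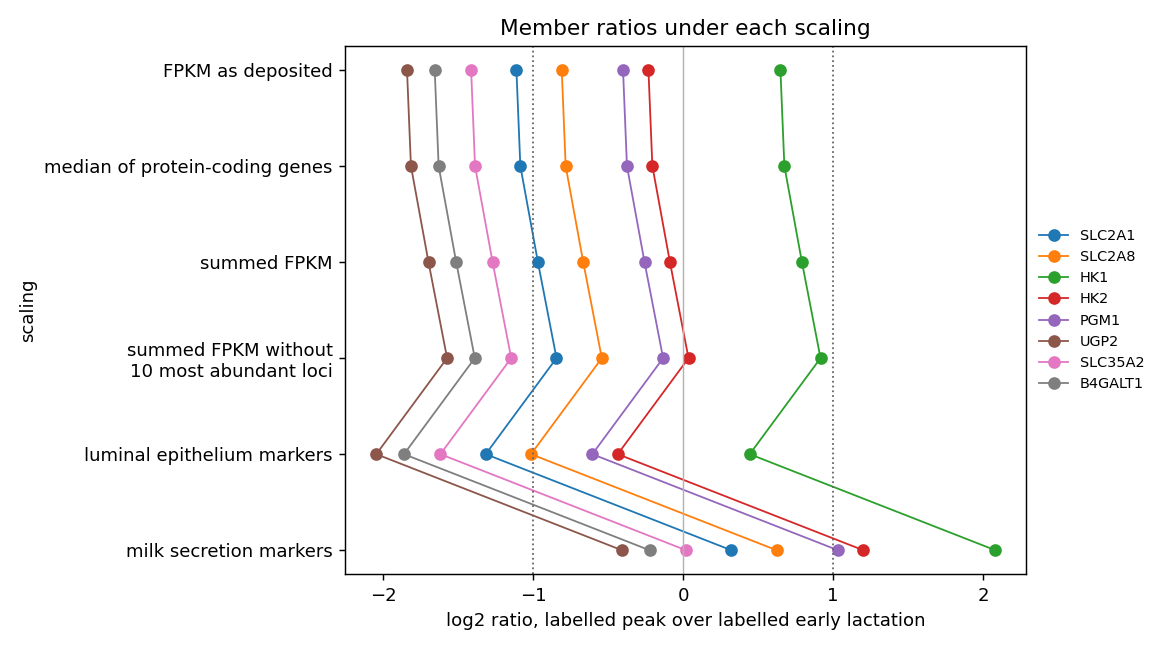
Log2 ratio of P over E for each of the 8 genes under 6 scalings of the libraries, with 2-fold as dotted lines. Each scaling shifts all genes by the same amount, so the order, from UGP2 as the lowest to HK1 as the highest, cannot differ between rows. Scaling to milk secretion markers moves UGP2 and B4GALT1 to between -0.41 and -0.22.

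Likeness was measured as the largest difference between the log2 ratios of 2 genes over the 3 comparisons, on 3 libraries. Within the 8 genes, B4GALT1 and UGP2 were the closest pair at 0.18, followed by SLC2A1 and SLC35A2 at 0.30, and HK1 and UGP2 the farthest at 2.49. Among 4971 other protein-coding genes with a mean of at least 10 FPKM, the closest to B4GALT1 were SEC16B, CCL28 and ANKH, at 0.015, 0.096 and 0.097. SEC16B had 45.8, 14.4 and 53.2 FPKM in the E, P and L libraries. The closest to SLC2A1 were THRB, CD59 and NDRG2, at 0.022, 0.026 and 0.027. Within 0.25 of the pattern lay 51 genes for B4GALT1, 164 for SLC2A1 and 35 for UGP2, against 910 for HK2 and 670 for PGM1, so the pattern of the last 2 was a common one.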

How the data were processed

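Trimmed reads were mapped by the authors with TopHat2 2.0.9 and Bowtie2, assembled with Cufflinks 2.1.1 and Cuffmerge, and deposited FPKM from Cuffdiff for 50041 loci, 1 column per library. The library normalization inside Cuffdiff is not given in the sources used here. Between 41.2% and 46.7% of the values above 0 had 7 significant digits, and at least 95.7% of those ended in 5. Whether a value is a mean of runs is not stated. No other per-sample column was present.

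Of 15274 loci with a single gene ID, 14403 were found in RefSeq's list of genes for the ARS1.2 assembly, used for names only. The scaffolds belong to an assembly that the file does not name. Loci of one ID were summed. Ratios are of FPKM, with 0 set to 0.001, and genes were called at a ratio of at least 2. No test was run with 1 library per stage. The members and lists were chosen with earlier results of these data known. Pathway genes were named if called at 1 FPKM or more in each library compared, together with up to 3 further genes of the highest mean FPKM per list, and marker lists were given by counts and sums. Alternatives were other folds, pseudocounts, a filter on low FPKM, 1 locus per gene, other scalings and exchanged columns. Protein and promoter sequences were not analysed here, and some genes of the lists are not reported here. Python 3.11.15, numpy 2.4.6, pandas 2.3.3 and matplotlib 3.10.9 were used.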

Additional observations from a re-analysis of the deposited data

How the results depend on the processing

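The median log2 ratio of the 8 genes, -0.96 for P over E, 0.10 for L over E and 1.06 for L over P, was recomputed under each alternative and taken as moved at any change in the second decimal, since no replicate spread is at hand. For P over E it was -0.95 with a pseudocount of 0.1, -0.88 with a pseudocount of 1, -0.93 scaled to the median of protein-coding genes, -0.82 scaled to summed FPKM, -0.69 without the 10 most abundant loci and -1.16 scaled to luminal epithelium markers. For L over E it was 0.092 with a pseudocount of 1, and 0.11, 0.22, 0.12 and 0.12 under these 4 scalings. For L over P it was 1.05 and 0.97 with the pseudocounts and 1.02, 1.04, 0.81 and 1.19 under the scalings. Keeping only the most abundant locus of each gene could move none of these values, since each of the 8 genes has 1 locus.

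Scaled to milk secretion markers, chosen after seeing the data, the medians were 0.47, -0.32 and -0.84. In place of 4 genes lower in the P than in the E library there were 0 lower and 3 higher, and in place of 4 genes higher in the L than in the P library there were 0 higher and 4 lower. Most protein-coding genes were called in the same directions under this scaling. Among genes at 1 FPKM or more in both libraries, 23.7% lay below PGM1, called higher for P over E. For L over P, 90.0% lay below SLC2A8, called lower. SLC2A1 turned to 0.32 and SLC35A2 to 0.019 for P over E, and for L over P B4GALT1 turned to -0.014, SLC2A1 to -0.65, SLC35A2 to -0.46 and UGP2 to -0.0088. The milk secretion genes were lowest in the P library and LALBA is listed at 0 in the L library, and whether the labels are right was not tested. With the columns labelled peak and late exchanged, the medians were 0.10, -0.96 and -1.06, 0 genes were lower in P than in E, 4 were lower in L than in E, and 0 were higher and 4 lower in L than in P. B4GALT1, SLC2A1, SLC35A2 and UGP2 then stood at 0.23, 0.14, 0.028 and 0.051 for P over E and at -1.88, -1.25, -1.44 and -1.89 for L over P. Both alternatives do this by construction.

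At a fold of at least 1.5, HK1 was the 1 gene higher in the P than in the E library, against 21.1% of protein-coding genes. At this fold 5 genes were lower in the P than in the E library, against 15.7%. For L over P, 5 genes were higher and 0 lower, against 17.9% and 26.1%. At a fold of at least 4, 0 genes were called in either comparison with the P library. Among genes at 1 FPKM or more in each library compared, the share of protein-coding genes called between L and E was 2.88%, and 0 pathway genes were called there, also 0 with a pseudocount of 1. No paired analysis was possible because there is only 1 library per stage, and for the same reason no replicate could be left out. The depth per locus is unknown, which limits HK2 most, near 1 FPKM in each library.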

Other observations

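Of the 10 measured reference genes, often used to scale expression, the median log2 ratio of P over E was -0.13. Only 1 was called between these libraries, HPRT1, with 8.11 FPKM in the E library, 0.0362 FPKM in the P library and 6.85 FPKM in the L library. The other 9 stayed within 2-fold, with log2 ratios from -0.94 to 0.67.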
